A study of Chelonia mydas with 15 samples.

Results

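Wnt proteins are secreted, lipid-carrying signals. The genes of the green sea turtle (Chelonia mydas) for these ligands, for their receptors and secreted inhibitors, and for the proteins that pass the signal to the nucleus were followed in early embryos. The genes were taken by symbol, as every entry of the deposited count table that bore a listed name. Listed were all WNT, FZD, SFRP, DKK and RSPO genes, LGR4 to LGR6, LRP5, LRP6, AXIN1, AXIN2, NOTUM, SOST and SOSTDC1. The list also held LEF1, the TCF7 genes, PORCN, WLS, RNF43, ZNRF3, CTNNB1, APC and GSK3B. It gave 61 of the 23730 named genes. The list, and the roles and further lists below, were set with earlier results of these data known. Of these, 53 held enough counts to be tested, among 16639 tested genes in all. The 8 untested genes were WNT3, WNT6, WNT7A, WNT7B, WNT9B, WNT10B, RSPO4 and SFRP4, with between 0 and 37 counts in any library.

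RNA was sequenced from 15 embryo samples in 3 groups of 5. The freshly laid group was removed from the egg no later than 1 h after laying. The normoxia group had lain buried in sand for 36 h at an oxygen tension near 159 mmHg, and the hypoxia group for the same 36 h sealed in bags of nitrogen (under 8 mmHg), both at 26 to 28 °C. The series is described as a study of the arrest in which turtle embryos are held before laying. The normoxia group shows embryos after 36 h in air, and the hypoxia group embryos for which low oxygen was kept up. Below, a change in air means normoxia against freshly laid embryos. In that comparison, air and 36 h of incubation cannot be told apart. Hypoxia and normoxia differed in oxygen and in how the eggs were kept, in bags or in sand, which cannot be told apart either. The labels name no strain, sex or clutch for any sample. Nothing in them says that the 5 samples of a group came from different females. The tests judge differences against the spread between these samples, taken as independent. If some samples of a group shared a female, the p-values could be too small.

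In the canonical pathway, a Wnt ligand joins a Frizzled receptor to the co-receptor LRP5 or LRP6. This stops a destruction complex of AXIN, APC and GSK3 from marking β-catenin for breakdown, and β-catenin then acts with TCF and LEF factors on target genes. In vertebrate embryos, posterior Wnt signals are known for their part in forming the primitive streak and the trunk and tail, and inhibitors secreted from anterior tissue protect the head from them. Other Wnt proteins, among them WNT5A and WNT11, are known mainly for guiding cell movement and polarity without β-catenin.

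Library totals ran from 14496102 to 21771745 counts in freshly laid embryos, from 18257476 to 26805841 after normoxia and from 17590559 to 20797573 after hypoxia. Composition factors (TMM) were 0.785 to 0.904 in hypoxia and 1.00 to 1.14 in the other groups, so the libraries differed in composition. Levels are given as CPM, the TMM-scaled counts relative to the library total. Levels of different genes are compared as RPKM, which divides CPM by exon length in kilobases. The summed levels of tissue markers are the exception, as they add CPM and are not scaled for length. Fold changes are log2 values from the edgeR quasi-likelihood model, ± after a fold change is its standard error (SE) and after a level the standard deviation (SD) over 5 libraries, and a gene was called when its Benjamini-Hochberg adjusted p over all tested genes was under 0.05. Freshly laid replicate 1 stood apart from its group in several of these genes. It held 0.0628 CPM of DKK1, 4.33 of FZD5 and 6.34 of FZD8, against 20.4 to 87.6, 36.1 to 139 and 20.6 to 74.3 CPM in the other freshly laid libraries, and its 95.8 CPM of AXIN2 lay above their 26.1 to 58.8 CPM. Calls of Wnt genes that change without it are named with each result.

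Of the 53 tested Wnt genes, 36 were called in at least 1 of the 3 comparisons and 17 in none. The matching share of all tested genes was not counted, so the 36 are not read as a result about Wnt genes. From freshly laid to normoxia, 11 genes were higher and 10 lower, or 20.8% and 18.9% of those tested, beside 15.2% and 16.1% of all tested genes. From freshly laid to hypoxia, 6 were higher and 9 lower, or 11.3% and 16.98%, beside 20.9% and 19.4% of all tested genes. At 36 h, hypoxia against normoxia, 10 were higher and 15 lower, or 18.9% and 28.3%, beside 25.7% and 23.2% of all tested genes. The median log2 fold changes of the Wnt genes were 0.06, -0.08 and -0.00220 in that order, and those of all tested genes were -0.00456, 0.03 and 0.06. As a whole list the Wnt genes were called at shares near those of all genes, with the widest gap among genes higher in hypoxia than in freshly laid embryos. The comparisons share groups and are not independent of each other. With only the libraries whose header index number is below 12, a setting chosen after seeing the data that leaves 2 in normoxia, 36 of the 61 calls held. Those lost from freshly laid to normoxia include WNT8B (edgeR adjusted p = 0.0903), LRP6 (0.0595), FZD1 (0.0682), RSPO3 (0.0627), DKK2 (0.152) and LEF1 (0.276), those from freshly laid to hypoxia FZD10 (0.0955) and NOTUM (0.190), and those between hypoxia and normoxia LEF1 (0.184), SFRP2 (0.0991) and AXIN2 (0.117). In RNA from whole samples, fewer cells of a type and less RNA per cell cannot be told apart.

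**Figure D1:**
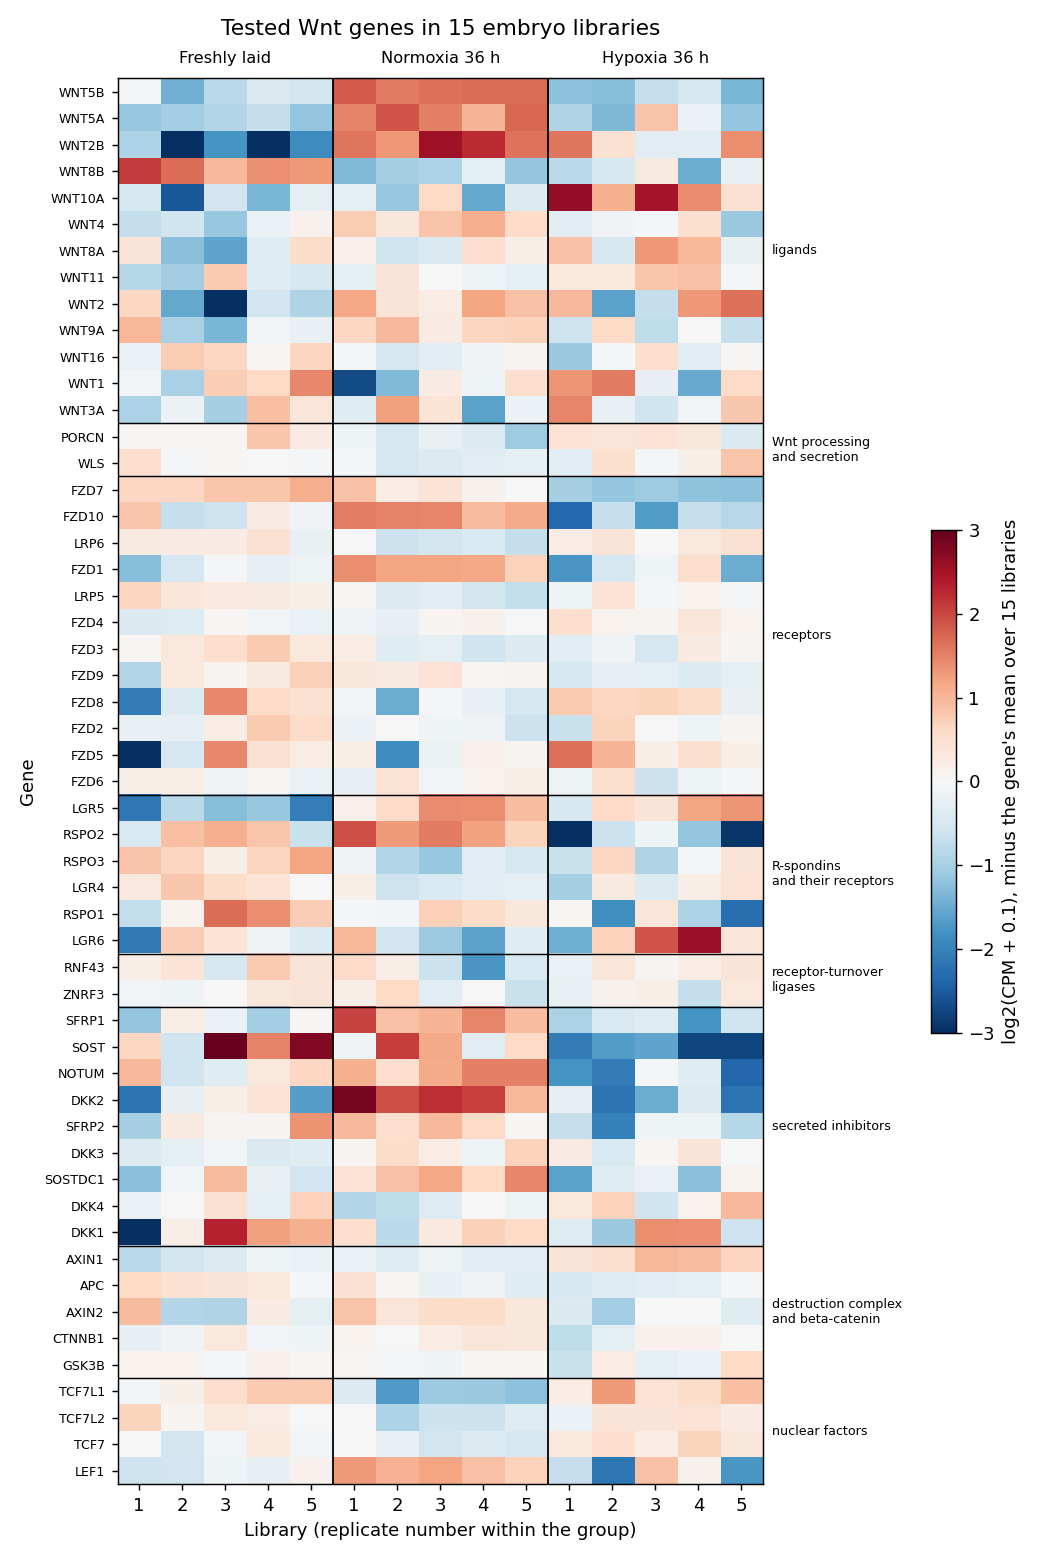
Heat map of the 53 tested Wnt genes (rows, by role) in the 15 libraries (columns, by group and replicate number). Colour is log2(CPM + 0.1) minus the gene's mean over all libraries, limited at 3 in either direction. The normoxia block is red for WNT5B, WNT5A, FZD10, FZD1, SFRP1, DKK2 and LEF1 and blue for TCF7L1, LRP5 and LRP6, and the hypoxia block is blue for FZD7, SOST and most other inhibitors.

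Among ligands, the 2 WNT5 genes rose in air and were not called between hypoxia and freshly laid embryos, WNT2B rose in both incubated groups, WNT8B fell in both, and WNT10A rose in hypoxia. Of the 13 tested ligands of 19, 4 were higher and 1 lower in normoxia than in freshly laid embryos, 2 were higher and 1 lower in hypoxia than in freshly laid embryos, and 1 was higher and 2 were lower in hypoxia than in normoxia. These were 30.8% and 7.69%, 15.4% and 7.69%, and 7.69% and 15.4% of those tested. All tested genes gave 15.2% and 16.1%, 20.9% and 19.4%, and 25.7% and 23.2%. Ligand shares in both hypoxia comparisons lay below these. Several tested ligands had few counts, such as WNT1 (0 to 36 per library), WNT3A (1 to 24) and WNT2 (1 to 64). A difference in such genes is harder to call, so the lower shares are not read as a result about ligands. WNT5B, which with WNT5A acts in the streak and tail bud of other vertebrates, was measured at 23.4, 8.798, 13.8, 18.04 and 16.5 CPM at laying, 86.9, 71.4, 76.3, 77.1 and 76.999 after normoxia and 10.2, 10.004, 15.02, 16.7 and 9.34 after hypoxia. Every normoxia library lay above every other library, and the freshly laid and hypoxia ranges overlapped. The rise in air was 2.27 ± 0.23 (edgeR adjusted p = 4.79e-06) and the fall from normoxia to hypoxia was -2.66 ± 0.23 (adjusted p = 1.27e-07). Hypoxia and freshly laid embryos differed by -0.39 ± 0.22 (edgeR adjusted p = 0.172). This last difference was called without freshly laid replicate 2, at -0.55 (edgeR adjusted p = 0.0403), and with total counts as the only scaling, at -0.69 (adjusted p = 0.0257).

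WNT5A, the best known non-canonical ligand, was measured at 5.72, 6.21, 6.76, 7.67 and 5.55 CPM at laying, 35.7, 46.6, 35.9, 25.6 and 41.8 after normoxia and 6.72, 4.92, 22.97, 11.1 and 5.57 after hypoxia. All normoxia libraries lay above all others, and hypoxia replicates 3 and 4 lay above the freshly laid range. The log2 fold changes were 2.54 ± 0.36 (edgeR adjusted p = 8.24e-05) from freshly laid to normoxia and -1.86 ± 0.35 (adjusted p = 2.82e-04) from normoxia to hypoxia. Between hypoxia and freshly laid embryos the value was 0.68 ± 0.34 (edgeR adjusted p = 0.123).

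WNT2B, a canonical ligand of mesoderm next to developing organs, was near the detection limit in freshly laid embryos and was measured at 0.628, 0, 0.302, 0 and 0.275 CPM at laying, 4.098, 3.33, 7.998, 6.39 and 4.196 after normoxia and 4.11, 1.804, 1.01, 0.992 and 3.51 after hypoxia. The freshly laid range lay below both incubated ranges. It rose by 4.42 ± 0.77 (edgeR adjusted p = 4.38e-04) in normoxia and by 3.24 ± 0.75 (adjusted p = 0.00225) in hypoxia. Without freshly laid replicate 1 these values were 5.10 and 3.92. WNT8B, a ligand known from the forebrain, was measured at 4.08, 2.99, 1.81, 2.402 and 2.25 CPM at laying, 0.289, 0.387, 0.415, 0.709 and 0.334 after normoxia and 0.463, 0.601, 1.07, 0.248 and 0.729 after hypoxia. Every freshly laid library lay above every incubated library. It fell in normoxia (-2.64 ± 0.47, edgeR adjusted p = 5.71e-04) and in hypoxia (-2.11 ± 0.47, adjusted p = 0.00166), and the incubated groups overlapped.

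WNT10A, known for its part in teeth and skin appendages, was measured at 1.005, 0.173, 0.965, 0.511 and 1.19 CPM at laying, 1.21, 0.619, 2.29, 0.443 and 1.097 after normoxia and 9.67, 3.23, 8.77, 4.09 and 2.05 after hypoxia. Hypoxia lay above the freshly laid range in every library, and hypoxia replicate 5 overlapped the highest normoxia library. It was higher in hypoxia than in freshly laid embryos (2.84 ± 0.59, edgeR adjusted p = 0.00109) and than in normoxia (2.29 ± 0.57, adjusted p = 0.00315). WNT4, a ligand of kidney and gonad development, was the other ligand called, with 1.24 ± 0.451 CPM at laying, 2.93 ± 0.608 after normoxia and 1.54 ± 0.609 after hypoxia. Its rise in air was 1.23 ± 0.39 (edgeR adjusted p = 0.0247), and it was not called when freshly laid replicate 2 or 3 or normoxia replicate 3 or 4 was left out (adjusted p 0.0522 to 0.0631). Without hypoxia replicate 4, WNT4 was called lower in hypoxia than in normoxia (-1.14, edgeR adjusted p = 0.0321).

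WNT8A, a ligand of the ventral and posterior mesoderm in other vertebrates, was the most abundant ligand per length in all 3 groups, at 40.96 ± 24.4 RPKM at laying, 48.2 ± 14.6 after normoxia and 75.3 ± 36.1 after hypoxia (n = 5 each). Its libraries gave 119, 37.7, 30.2, 69.7 and 132 CPM at laying, 100.4, 59.9, 67.1, 127 and 102 after normoxia and 167, 64.8, 223, 181 and 77.9 after hypoxia. The 3 ranges overlapped, and no comparison called it. Its log2 fold change from freshly laid to hypoxia was 0.88 ± 0.40 (edgeR adjusted p = 0.0894), and it was called there without freshly laid replicate 5 or hypoxia replicate 2 (adjusted p 0.0397 and 0.0433). As a share of the summed RPKM of all 19 ligands, WNT8A made up 68.9 ± 12.4% at laying, 50.5 ± 7.902% after normoxia and 77.8 ± 6.78% after hypoxia. WNT5B made up 10.6 ± 2.996%, 28.8 ± 3.61% and 4.86 ± 1.47%, and WNT5A 2.99 ± 1.496%, 8.83 ± 2.97% and 2.22 ± 0.79%. The order below WNT8A was loose outside normoxia. WNT11 made up 5.50 ± 5.45% at laying, 2.99 ± 1.09% after normoxia and 4.52 ± 1.46% after hypoxia. Its mean share was above that of WNT5A at laying and after hypoxia. WNT11, WNT16, WNT2, WNT9A, WNT1 and WNT3A had group means between 0.109 and 3.90 RPKM and were called in no comparison, with overlapping ranges for most neighbours in the order. WNT11 in hypoxia against freshly laid was called without freshly laid replicate 3, at 1.18 (edgeR adjusted p = 0.00463), and 0.74 ± 0.34 (adjusted p = 0.0917) with it. WNT2 was called without freshly laid replicate 1 in normoxia against freshly laid (2.27, edgeR adjusted p = 0.0260), against 1.58 ± 0.70 (adjusted p = 0.0952) with it. The calls of WNT2 in hypoxia against freshly laid (edgeR adjusted p 0.0225 without that library and 0.0429 without hypoxia replicate 2) and of WNT9A in normoxia (1.28, adjusted p = 0.0393 without that library, against 0.78, adjusted p = 0.217 with it) were gained in the same way.

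**Figure D2:**
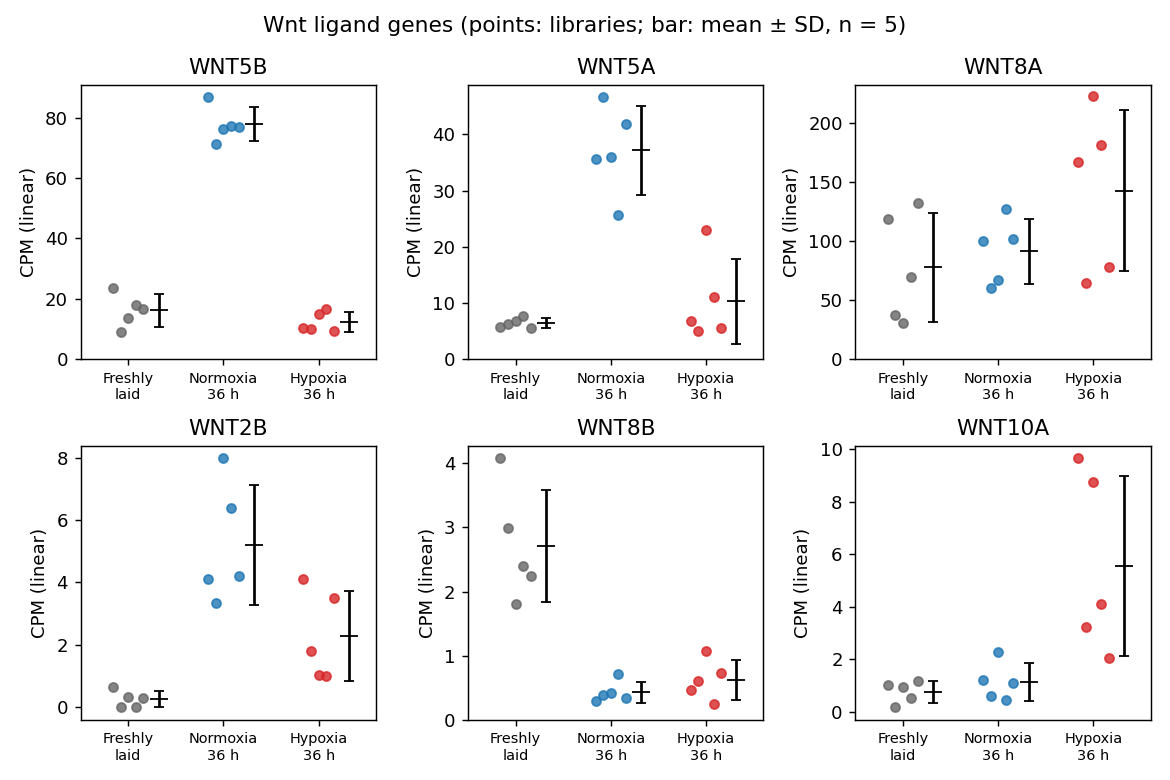
CPM of 6 ligand genes in each library (points) by group, with the mean and SD of the 5 libraries as a bar beside them, on linear axes from 0. WNT5B and WNT5A are separate from both other groups in normoxia, WNT8B is high in freshly laid embryos, and WNT8A overlaps between all groups.

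Some ligand genes lie next to each other, as in other vertebrates. In the coordinates of the deposited table (assembly rCheMyd1.pri), WNT10A and WNT6 lie 32.2 kb apart on the same strand, WNT1 and WNT10B 23.0 kb apart, WNT3A and WNT9A 67.9 kb apart and WNT3 and WNT9B 109 kb apart, the last 3 pairs on opposite strands, with 0 named genes between the members of any pair. WNT10A was the only called member of these pairs. Its neighbour WNT6 was too low to be tested and held 0 to 9 counts in the hypoxia libraries and up to 18 in normoxia. Among untested ligands, WNT10B had the highest count, 37, in hypoxia replicate 2. WNT7A had no count in freshly laid embryos or hypoxia, WNT3 3 counts in a single freshly laid library, and WNT7B 1 count in a single freshly laid library.

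PORCN and WLS, which make ligands ready for release, were both higher in hypoxia than in normoxia. PORCN, the enzyme that adds the lipid to Wnt proteins, was measured at 32.5, 32.5, 33.3, 56.6 and 37.9 CPM at laying, 29.2, 21.8, 27.1, 23.99 and 15.1 after normoxia and 43.1, 40.7, 42.1, 40.5 and 23.6 after hypoxia. All freshly laid libraries lay above the normoxia range, and hypoxia did so apart from replicate 5. PORCN fell in normoxia (-0.72 ± 0.22, edgeR adjusted p = 0.0179), a call lost without freshly laid replicate 4 or normoxia replicate 5 (adjusted p 0.0639 and 0.0504), and was higher in hypoxia than in normoxia (0.70 ± 0.22, adjusted p = 0.0127). WLS, the carrier that takes Wnt proteins to the cell surface, was measured at 681, 463, 496, 489 and 463 CPM at laying, 473, 336, 361, 387 and 395 after normoxia and 385, 670.0, 461, 547 and 852 after hypoxia. Normoxia replicate 1 reached into the freshly laid range, and hypoxia ranged from 385 to 852 CPM. WLS was higher in hypoxia than in normoxia (0.58 ± 0.19, edgeR adjusted p = 0.0168), a call lost without hypoxia replicate 5 at 0.40 (adjusted p = 0.0600). With total counts as the only scaling, the hypoxia against normoxia calls ended for PORCN (edgeR adjusted p = 0.195) and WLS (adjusted p = 0.286).

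The Frizzled receptors split. FZD10 and FZD1 rose in air and were low in hypoxia, FZD7 was lowest in hypoxia, FZD4 was slightly higher in hypoxia, and the co-receptors LRP5 and LRP6 fell in air and stood higher in hypoxia. Of the 12 receptor genes, all tested, 2 were higher and 4 lower from freshly laid to normoxia, 1 higher and 2 lower from freshly laid to hypoxia, and 2 higher and 4 lower in hypoxia against normoxia. These were 16.7% and 33.3%, 8.33% and 16.7%, and 16.7% and 33.3% of them. All tested genes gave 15.2% and 16.1%, 20.9% and 19.4%, and 25.7% and 23.2%.

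FZD7, a main Frizzled receptor of early embryos and pluripotent cells in other vertebrates, was measured at 99.4, 100.7, 116, 115 and 139 CPM at laying, 121, 75.7, 87.01, 71.6 and 64.03 after normoxia and 32.6, 29.2, 30.98, 28.3 and 27.6 after hypoxia. The hypoxia libraries lay within 27.6 to 32.6 CPM and below all others, while normoxia reached into the freshly laid range through replicate 1. The gene was lower in hypoxia than in freshly laid embryos (-1.94 ± 0.16, edgeR adjusted p = 2.52e-07) and than in normoxia (-1.49 ± 0.16, adjusted p = 1.32e-06). Its fall in air, -0.45 ± 0.16 (edgeR adjusted p = 0.0402), was lost without freshly laid replicate 3, 4 or 5 or without normoxia replicate 2, 3, 4 or 5 (adjusted p 0.0650 to 0.111), and with total counts only (0.0670).

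FZD10 was measured at 46.4, 15.99, 16.96, 30.8 and 24.1 CPM at laying, 75.3, 73.5, 71.5, 50.2 and 56.6 after normoxia and 5.09, 16.1, 8.08, 16.2 and 14.6 after hypoxia. Normoxia lay above both other groups, and freshly laid replicate 2 fell within the hypoxia range. The gene rose in air (1.29 ± 0.32, edgeR adjusted p = 0.00563), was lower in hypoxia than in freshly laid embryos (-1.16 ± 0.32, adjusted p = 0.00801) and was lower in hypoxia than in normoxia (-2.44 ± 0.33, adjusted p = 1.25e-05). It was the only one of the 53 genes called in all 3 comparisons with opposite directions in the incubated groups. FZD1 was measured at 2.76, 4.83, 6.58, 5.83 and 6.197 CPM at laying, 18.2, 15.8, 15.8, 15.4 and 11.1 after normoxia and 1.97, 4.81, 6.25, 10.04 and 2.39 after hypoxia. The normoxia range lay above both others, which overlapped. Its level rose in air (1.54 ± 0.38, edgeR adjusted p = 0.00563) and was lower in hypoxia than in normoxia (-1.58 ± 0.38, adjusted p = 0.00232).

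LRP6, the co-receptor that is phosphorylated on ligand binding, was measured at 103, 100.7, 100.7, 116 and 73.5 CPM at laying, 84.2, 54.7, 58.1, 62.3 and 51.5 after normoxia and 99.8, 111, 84.3, 106 and 118 after hypoxia. Hypoxia lay above normoxia, with hypoxia replicate 3 only just higher than normoxia replicate 1, and overlapped the freshly laid range. It fell in air (-0.67 ± 0.16, edgeR adjusted p = 0.00406) and was higher in hypoxia than in normoxia (0.74 ± 0.16, adjusted p = 8.49e-04). Its paralogue LRP5 was measured at 63.1, 51.2, 48.8, 48.1 and 45.5 CPM at laying, 41.1, 30.1, 31.6, 27.2 and 23.8 after normoxia and 36.5, 53.5, 38.2, 43.3 and 38.8 after hypoxia. Freshly laid embryos lay above normoxia in all libraries, and hypoxia spanned part of both ranges. It fell in air (-0.74 ± 0.16, edgeR adjusted p = 0.00263), and its difference between hypoxia and normoxia, 0.45 ± 0.16 (adjusted p = 0.0286), was lost without normoxia replicate 2, 4 or 5 or hypoxia replicate 2 (adjusted p 0.0551 to 0.0930). With total counts as the only scaling the hypoxia against normoxia calls ended for LRP6 (edgeR adjusted p = 0.0555) and LRP5 (adjusted p = 0.607).

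Per length, FZD7 (27.4 ± 3.85 RPKM) and FZD4 (22.1 ± 3.16) led in freshly laid embryos, FZD4 (25.2 ± 2.59), FZD10 (20.4 ± 3.52) and FZD7 (20.1 ± 5.33) in normoxia, and FZD4 (30.2 ± 4.12) and FZD5 (16.1 ± 7.74) in hypoxia (SD, n = 5 each). In normoxia the leading genes did not differ beyond their spread. As a share of the summed RPKM of the 12 receptors, FZD7 made up 23.4 ± 3.05%, 17.7 ± 2.80% and 7.03 ± 0.80% in freshly laid, normoxia and hypoxia, and FZD10 7.46 ± 4.60%, 18.1 ± 2.86% and 3.69 ± 1.56%. FZD4, a receptor known from vessels and the retina, had 108 ± 15.4 CPM at laying, 123 ± 12.6 after normoxia and 147 ± 20.1 after hypoxia, and it was higher in hypoxia than in freshly laid embryos (0.45 ± 0.13, edgeR adjusted p = 0.0118), a call that ended with total counts only (adjusted p = 0.397). FZD3, which acts in axon guidance, had 15.2 ± 2.97 CPM at laying, 9.47 ± 2.24 after normoxia and 10.6 ± 2.25 after hypoxia and a fall in air of -0.68 ± 0.22 (edgeR adjusted p = 0.0274), lost when freshly laid replicate 3 or 4 or any of normoxia replicates 2 to 5 was left out (adjusted p 0.0514 to 0.0797). Without hypoxia replicate 4, FZD3 was called lower in hypoxia than in freshly laid embryos (-0.62, edgeR adjusted p = 0.0455). FZD9 had 16.3 ± 5.67 CPM at laying, 16.97 ± 1.93 after normoxia and 11.3 ± 0.794 after hypoxia. Its level was lower in hypoxia than in normoxia (-0.58 ± 0.23, edgeR adjusted p = 0.0441), a call lost when any library other than freshly laid 1 or 5 was left out (adjusted p 0.0506 to 0.0964). Between hypoxia and freshly laid embryos FZD9 gave -0.53 ± 0.23 (edgeR adjusted p = 0.0772), and it was called there without freshly laid replicate 1 (-0.71, adjusted p = 0.00537). FZD2, FZD5, FZD6 and FZD8 were called in no comparison, and FZD8 was called lower in normoxia (-1.06, edgeR adjusted p = 0.0254) and higher in hypoxia than in normoxia (0.92, adjusted p = 0.0236) without freshly laid replicate 1, against -0.79 (adjusted p = 0.173) and 0.92 (adjusted p = 0.0898) with it.

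**Figure D3:**
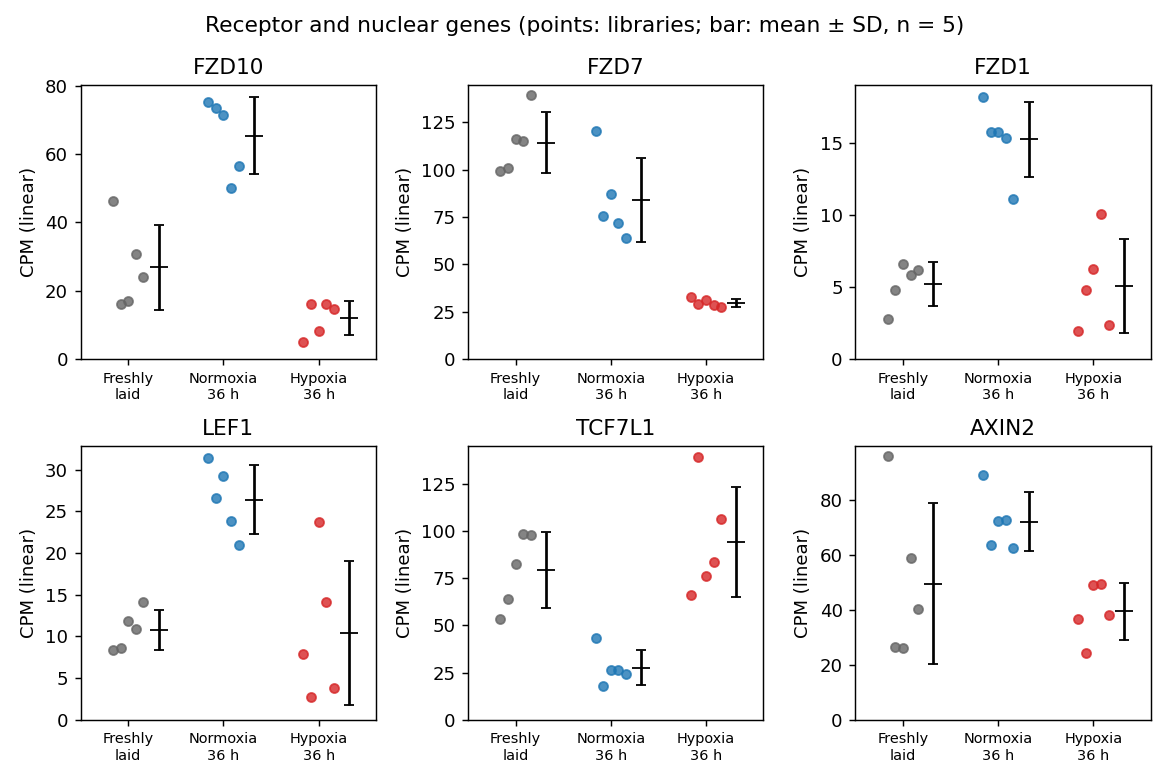
CPM of 3 receptor genes, 2 nuclear factors and AXIN2 in each library (points) by group, with the mean and SD of the 5 libraries as a bar, on linear axes from 0. FZD10, FZD1 and LEF1 are highest in normoxia, TCF7L1 is lowest there, FZD7 is lowest in hypoxia, and freshly laid replicate 1 is the highest AXIN2 point.

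R-spondins are secreted proteins that bind LGR4, LGR5 and LGR6 and remove the ligases RNF43 and ZNRF3, which otherwise clear Frizzled receptors from the cell surface. LGR5 rose in both incubated groups, while R-spondin genes and LGR4 were lower or not called. Of 6 tested genes of 7, 1 was higher and 2 lower from freshly laid to normoxia, 1 higher and 3 lower from freshly laid to hypoxia, and 1 lower in hypoxia against normoxia. These were 16.7% and 33.3%, 16.7% and 50%, and 16.7% of those tested. All tested genes gave 15.2% and 16.1%, 20.9% and 19.4%, and 23.2%. LGR5 was measured at 0.942, 2.53, 1.81, 1.99 and 1.01 CPM at laying, 5.06, 6.85, 12.3, 12.02 and 8.68 after normoxia and 3.24, 6.83, 5.93, 10.4 and 11.6 after hypoxia. All incubated libraries lay above all freshly laid libraries, and the incubated groups overlapped. The gene rose in air (2.43 ± 0.40, edgeR adjusted p = 3.09e-04) and in hypoxia (2.19 ± 0.40, adjusted p = 3.49e-04).

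RSPO3, the most abundant R-spondin per length in every group, was measured at 78.8, 68.5, 49.4, 68.2 and 98.97 CPM at laying, 40.7, 23.7, 19.6, 34.2 and 31.2 after normoxia and 27.3, 67.1, 23.3, 42.8 and 57.3 after hypoxia. The freshly laid range lay above the normoxia range, and hypoxia overlapped both. It fell in air (-1.28 ± 0.28, edgeR adjusted p = 0.00247). Its fall from freshly laid to hypoxia, -0.74 ± 0.28 (edgeR adjusted p = 0.0406), was lost without freshly laid replicate 1, 2, 4 or 5 or hypoxia replicate 1, 3 or 4 (adjusted p 0.0541 to 0.0982). Without hypoxia replicate 3 it was called higher in hypoxia than in normoxia, at 0.70 (edgeR adjusted p = 0.0342), against 0.54 ± 0.28 (adjusted p = 0.113) with it.

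RSPO2 was measured at 1.19, 3.22, 3.62, 3.07 and 1.01 CPM at laying, 6.61, 4.18, 5.09, 3.99 and 2.72 after normoxia and 0.0579, 1.04, 1.51, 0.682 and 0.133 after hypoxia. Every normoxia library lay above every hypoxia library, and the freshly laid range overlapped both. It was lower in hypoxia than in normoxia (-2.71 ± 0.64, edgeR adjusted p = 0.00195), or -3.30 with limma-voom. Its lower level in hypoxia than in freshly laid embryos, -1.81 ± 0.63 (edgeR adjusted p = 0.0284), was lost without freshly laid replicate 2, 3 or 4 or hypoxia replicate 5 (adjusted p 0.0543 to 0.0607). RSPO1 was measured at 0.942, 1.78, 5.49, 4.45 and 2.8003 CPM at laying, 1.59, 1.55, 2.74, 2.44 and 2.098 after normoxia and 1.68, 0.383, 2.15, 0.806 and 0.265 after hypoxia. All 3 ranges overlapped. The gene was lower in hypoxia than in freshly laid embryos (-1.55 ± 0.57, edgeR adjusted p = 0.0384), a call lost without freshly laid replicate 3, 4 or 5 or hypoxia replicate 2, 4 or 5 (adjusted p 0.0505 to 0.106).

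LGR4 was measured at 81.2, 116, 97.5, 88.4 and 65.5 CPM at laying, 74.97, 43.2, 48.1, 52.2 and 54.4 after normoxia and 33.2, 80.5, 50.3, 76.2 and 90.3 after hypoxia. Normoxia replicate 1 lay within the freshly laid range and the other normoxia libraries below it. Its fall in air was -0.72 ± 0.24 (edgeR adjusted p = 0.0289), and it was lost without freshly laid replicate 2 or 3 or normoxia replicate 2, 3, 4 or 5 (adjusted p 0.0537 to 0.0761). LGR6 had at most 2.54 CPM in any library and was not called, but it was called higher in hypoxia than in normoxia without normoxia replicate 1 or hypoxia replicate 1 (edgeR adjusted p 0.0275 and 0.0412). The ligase gene RNF43 was measured at 2.32, 2.703, 1.39, 3.58 and 2.66 CPM at laying, 3.04, 2.32, 1.25, 0.532 and 1.43 after normoxia and 1.74, 2.62, 2.15, 2.36 and 2.65 after hypoxia. ZNRF3, the other ligase, was measured at 3.89, 3.795, 4.16, 5.26 and 5.51 CPM at laying, 4.82, 6.304, 3.25, 4.21 and 2.57 after normoxia and 3.53, 4.54, 4.73, 2.48 and 5.24 after hypoxia. Neither ligase was called in any comparison, and their ranges overlapped between all groups. The log2 fold changes of RNF43 were -0.56 ± 0.43 (edgeR adjusted p = 0.327) in normoxia and -0.14 ± 0.42 (adjusted p = 0.821) in hypoxia against freshly laid embryos.

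Most secreted inhibitors were lower in hypoxia than in normoxia, and those not called lower were DKK1, DKK3 and DKK4. In hypoxia against normoxia, 6 of the 9 tested inhibitors of 10 were lower and 1 higher, with a median log2 fold change of -1.65, and the 6 lower genes were called under each of the 3 scalings tried. From freshly laid to normoxia 3 were called, all higher, and from freshly laid to hypoxia 2, both lower. In hypoxia against normoxia the lower share was 66.7%, beside 23.2% of all tested genes, and the higher share 11.1%, beside 25.7%. The 3 higher in normoxia were 33.3%, beside 15.2%, and the 2 lower in hypoxia 22.2%, beside 19.4%. SFRP1, a decoy that binds Wnt proteins outside the cell, was measured at 10.6, 27.5, 21.5, 11.96 and 25.02 CPM at laying, 99.6, 45.2, 49.7, 67.5 and 46.2 after normoxia and 12.6, 17.7, 18.9, 6.94 and 16.04 after hypoxia. Normoxia lay above every other library, and freshly laid and hypoxia embryos overlapped. It rose in air (1.67 ± 0.32, edgeR adjusted p = 9.13e-04) and was lower in hypoxia than in normoxia (-2.09 ± 0.32, adjusted p = 4.67e-05).

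NOTUM, the enzyme that strips the lipid from Wnt proteins and is itself a Wnt target, was measured at 19.5, 6.498, 7.66, 12.4 and 15.3 CPM at laying, 20.8, 14.2, 21.7, 28.8 and 28.5 after normoxia and 2.84, 2.24, 9.72, 7.75 and 1.86 after hypoxia. Normoxia lay above hypoxia in every library, and freshly laid embryos overlapped both. Its level was lower in hypoxia than in normoxia (-2.22 ± 0.44, edgeR adjusted p = 5.07e-04). Its difference between hypoxia and freshly laid embryos, -1.33 ± 0.43 (edgeR adjusted p = 0.0211), was lost without freshly laid replicate 1 or hypoxia replicate 1 or 2 (adjusted p 0.0513 to 0.0608).

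SOST encodes sclerostin, which blocks LRP5 and LRP6, and was measured at 0.942, 0.345, 5.97, 1.79 and 4.499 CPM at laying, 0.5303, 2.75, 1.38, 0.443 and 0.906 after normoxia and 0.0579, 0.109, 0.126, 0 and 0 after hypoxia. It was at 0 in hypoxia replicates 4 and 5 and at most 0.126 CPM in the others, below every library of the other groups. It was lower in hypoxia than in freshly laid embryos (-5.36 ± 0.98, edgeR adjusted p = 2.86e-04) and than in normoxia (-4.19 ± 0.97, adjusted p = 0.00131). DKK2, which also binds LRP5 and LRP6, was measured at 0, 0.288, 0.422, 0.511 and 0.0459 CPM at laying, 3.23, 1.66, 2.04, 1.82 and 0.811 after normoxia and 0.289, 0, 0.0631, 0.248 and 0 after hypoxia. Normoxia lay above both other groups, where several libraries had no count. Its level rose in air (2.89 ± 0.83, edgeR adjusted p = 0.0139) and was lower in hypoxia than in normoxia (-3.92 ± 0.91, adjusted p = 0.00160), or -4.52 without hypoxia replicate 1.

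SFRP2, a second decoy, was measured at 6.78, 16.6, 14.5, 14.6 and 35.3 CPM at laying, 27.1, 19.5, 26.8, 20.3 and 14.02 after normoxia and 8.51, 3.28, 12.6, 12.5 and 7.49 after hypoxia. Every normoxia library lay above every hypoxia library, and the freshly laid range, stretched by replicate 5, covered that of normoxia. The gene was lower in hypoxia than in normoxia (-1.28 ± 0.39, edgeR adjusted p = 0.0115). Its difference between hypoxia and freshly laid embryos was -0.98 ± 0.39 (edgeR adjusted p = 0.0511), and it was called without freshly laid replicate 1 or hypoxia replicate 3 or 4 (adjusted p 0.0163 to 0.0396). SOSTDC1, a sclerostin relative, had 0.704 ± 0.4798 CPM at laying, 1.51 ± 0.478 after normoxia and 0.479 ± 0.262 after hypoxia. Its level was lower in hypoxia than in normoxia (-1.65 ± 0.55, edgeR adjusted p = 0.0191), a call lost without normoxia replicate 5 (adjusted p = 0.0526), and it was called higher in normoxia than in freshly laid embryos without freshly laid replicate 3 (1.57, adjusted p = 0.0416).

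The DKK genes did not move as a family. DKK4 was the inhibitor called higher in hypoxia than in normoxia (0.79 ± 0.31, edgeR adjusted p = 0.0410), with 8.67 ± 2.64 CPM at laying, 5.79 ± 1.53 after normoxia and 10.04 ± 3.82 after hypoxia. That call was lost without normoxia replicate 1, 2, 3 or 5 or hypoxia replicate 1, 2 or 5 (edgeR adjusted p 0.0501 to 0.123), with total counts only (0.194), and in other settings. DKK3, a divergent family member whose action on Wnt signals is disputed, made up 76.0 ± 8.04%, 80.3 ± 6.12% and 85.4 ± 3.47% of the summed RPKM of the 10 inhibitors in freshly laid, normoxia and hypoxia. It had 317 ± 32.2 CPM at laying, 484 ± 113 after normoxia and 411 ± 86.2 after hypoxia. The gene rose in air (0.61 ± 0.17, edgeR adjusted p = 0.0125), and without hypoxia replicate 2 it was also called in hypoxia against freshly laid embryos (0.48, adjusted p = 0.0288). DKK1, the head-inducing inhibitor, was measured at 0.0628, 20.4, 87.6, 41.4 and 37.4 CPM at laying, 25.4, 10.2, 21.5, 29.0 and 26.9 after normoxia and 13.5, 8.09, 47.01, 45.8 and 11.5 after hypoxia. Freshly laid libraries spanned the whole range of the others and beyond, and hypoxia replicates 3 and 4 lay well above the other hypoxia libraries. No comparison called it, with SE of 0.76 on the log2 scale in each.

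**Figure D4:**
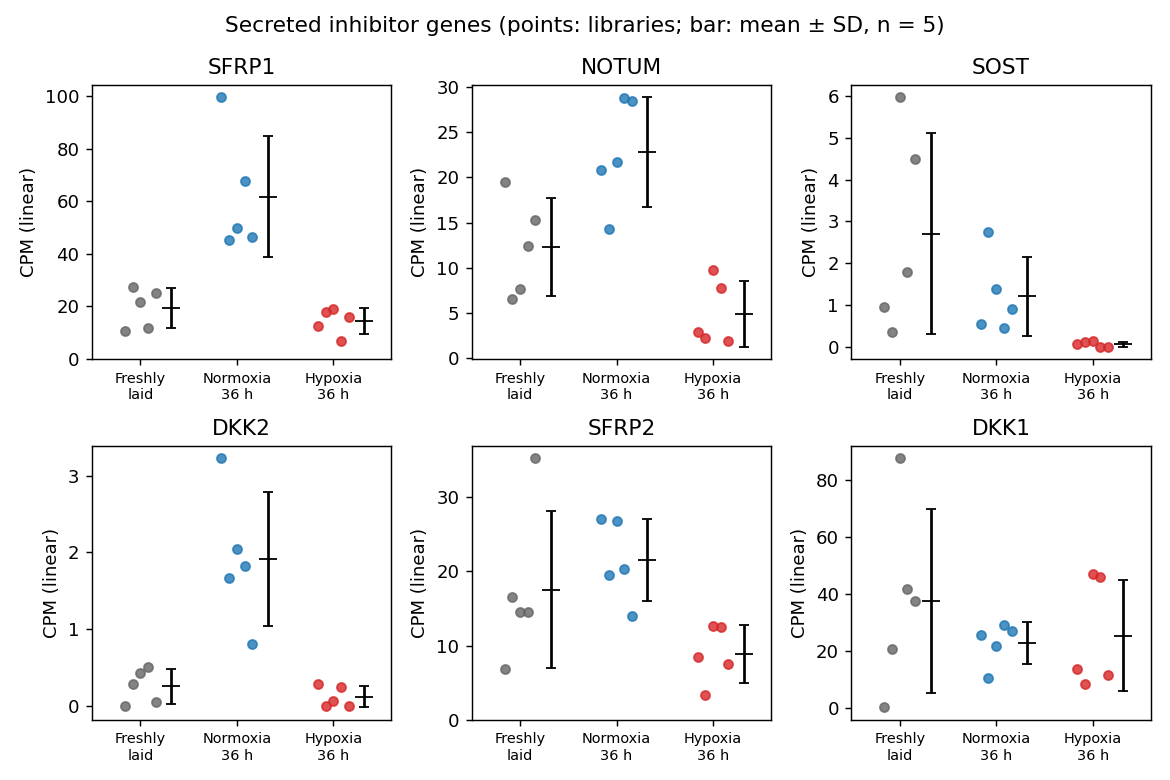
CPM of 6 secreted inhibitor genes in each library (points) by group, with the mean and SD of the 5 libraries as a bar, on linear axes from 0. SFRP1 and DKK2 are highest in normoxia, NOTUM, SFRP2 and SOST are lower in hypoxia than in normoxia, and DKK1 scatters from near 0 to 87.6 CPM within the freshly laid group.

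Among the destruction complex genes, AXIN1 was higher in hypoxia than in either other group. Of these and β-catenin, 5 genes and all tested, 1 was higher and 1 lower from freshly laid to hypoxia, and 1 was higher and 1 lower in hypoxia against normoxia. Each was 20% of the list, beside 20.9% and 19.4%, and 25.7% and 23.2%, of all tested genes. AXIN1, the constitutive scaffold, was measured at 24.4, 28.8, 32.04, 38.5 and 37.3 CPM at laying, 36.6, 32.3, 37.98, 34.1 and 33.8 after normoxia and 55.4, 58.9, 84.2, 80.8 and 66.6 after hypoxia. The lowest hypoxia library lay above the highest of the other groups. It was higher in hypoxia than in freshly laid embryos (1.10 ± 0.16, edgeR adjusted p = 3.70e-05) and than in normoxia (0.99 ± 0.16, adjusted p = 6.09e-05). Its paralogue AXIN2, a widely used readout of canonical signalling because β-catenin induces it, was measured at 95.8, 26.6, 26.1, 58.8 and 40.1 CPM at laying, 89.05, 63.6, 72.4, 72.7 and 62.4 after normoxia and 36.6, 24.3, 49.1, 49.2 and 38.2 after hypoxia. All normoxia libraries lay above all hypoxia libraries, and the freshly laid range overlapped both. AXIN2 was lower in hypoxia than in normoxia (-0.87 ± 0.30, edgeR adjusted p = 0.0237), a call lost without normoxia replicate 1 or hypoxia replicate 2 (adjusted p 0.0556 and 0.0626). Between normoxia and freshly laid embryos it gave 0.54 ± 0.30 (edgeR adjusted p = 0.176), and 0.92 (adjusted p = 0.0116) without freshly laid replicate 1.

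APC, the large scaffold that holds β-catenin in the complex, was measured at 73.8, 67.5, 64.3, 61.2 and 47.1 CPM at laying, 66.5, 49.7, 41.6, 45.1 and 37.95 after normoxia and 35.3, 37.4, 39.2, 40.7 and 46.7 after hypoxia. Hypoxia lay below freshly laid embryos in every library, and normoxia lay across both ranges. It was lower in hypoxia than in freshly laid embryos (-0.65 ± 0.16, edgeR adjusted p = 0.00394). In normoxia it gave -0.38 ± 0.16 (edgeR adjusted p = 0.0813), and it was called there without freshly laid replicate 5 or normoxia replicate 1 (adjusted p 0.0310 and 0.0158). CTNNB1, which encodes β-catenin, was measured at 1088, 1201, 1592, 1207 and 1169 CPM at laying, 1389, 1282, 1509, 1669 and 1638 after normoxia and 764, 1059, 1405, 1409 and 1288 after hypoxia. The ranges overlapped, and hypoxia replicate 1 was the lowest library. It was called in no comparison, with -0.34 ± 0.16 (edgeR adjusted p = 0.0953) in hypoxia against normoxia. It was called when an index number of 12 or above was a covariate (-0.46, edgeR adjusted p = 0.0372). With total counts as the only scaling CTNNB1 (-0.65, edgeR adjusted p = 0.00251) and APC (-0.61, adjusted p = 0.00871) were called lower in hypoxia than in normoxia. GSK3B, the kinase, was measured at 59.04, 58.4, 52.6, 60.6 and 56.6 CPM at laying, 56.4, 53.3, 50.1, 56.6 and 57.2 after normoxia and 34.4, 63.7, 44.9, 47.6 and 82.5 after hypoxia. Hypoxia was the most scattered group and covered both others. It was called in no comparison, with -0.07 in both comparisons with freshly laid embryos.

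Levels of the nuclear factors shifted in air, with TCF7L1 still the largest mean share of their summed RPKM there. TCF7L1, a member that acts mainly as a repressor, fell, and LEF1, which acts mainly as an activator and is itself induced by Wnt signals in many tissues, rose. Neither was called between hypoxia and freshly laid embryos. Of the 4 genes, 1 was higher and 2 lower in normoxia than in freshly laid embryos, 1 was higher in hypoxia than in freshly laid embryos, and 3 were higher and 1 lower in hypoxia than in normoxia. These were 25% and 50%, 25%, and 75% and 25%. All tested genes gave 15.2% and 16.1%, 20.9%, and 25.7% and 23.2%. TCF7L1 was measured at 53.6, 63.9, 82.4, 98.4 and 97.8 CPM at laying, 43.1, 17.6, 26.6, 26.5 and 24.1 after normoxia and 66.1, 139, 76.2, 83.6 and 107 after hypoxia. Every normoxia library lay below every library of the other groups. It fell in air (-1.52 ± 0.25, edgeR adjusted p = 3.00e-04) and was higher in hypoxia than in normoxia (1.77 ± 0.25, adjusted p = 2.01e-05), with 0.25 ± 0.24 (adjusted p = 0.434) between hypoxia and freshly laid embryos. LEF1 was measured at 8.35, 8.57, 11.8, 10.9 and 14.1 CPM at laying, 31.4, 26.6, 29.3, 23.8 and 20.9 after normoxia and 7.93, 2.79, 23.7, 14.1 and 3.78 after hypoxia. Normoxia lay above freshly laid embryos in every library, and hypoxia replicate 3 reached into the normoxia range while replicates 1, 2 and 5 lay below the freshly laid range. It rose in air (1.29 ± 0.42, edgeR adjusted p = 0.0270), a call lost without freshly laid replicate 1, 2 or 4 or normoxia replicate 1 or 3 (adjusted p 0.0506 to 0.0593), and was lower in hypoxia than in normoxia (-1.34 ± 0.42, adjusted p = 0.0145).

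TCF7L2, the factor known from gut and pancreas, was measured at 78.1, 52.5, 61.2, 57.95 and 49.6 CPM at laying, 49.3, 26.03, 31.4, 31.7 and 37.8 after normoxia and 43.7, 64.995, 64.2, 66.6 and 58.2 after hypoxia. Normoxia lay just below the freshly laid range, and hypoxia replicate 1 alone overlapped normoxia. It fell in air (-0.76 ± 0.18, edgeR adjusted p = 0.00436) and was higher in hypoxia than in normoxia (0.76 ± 0.18, adjusted p = 0.00225). TCF7 was measured at 18.8, 12.8, 17.6, 23.3 and 17.5 CPM at laying, 18.9, 15.9, 12.7, 13.97 and 13.1 after normoxia and 23.3, 26.6, 21.8, 29.6 and 23.7 after hypoxia. Hypoxia lay above normoxia in every library, and freshly laid embryos overlapped both. It was higher in hypoxia than in normoxia (0.75 ± 0.18, edgeR adjusted p = 0.00285). Its difference from freshly laid embryos, 0.47 ± 0.18 (edgeR adjusted p = 0.0477), was lost in 12 of the 15 fits that left out a library (adjusted p 0.0546 to 0.126), and held only without freshly laid replicate 4, normoxia replicate 1 or hypoxia replicate 3. With total counts only, the hypoxia against normoxia calls ended for TCF7L2 (edgeR adjusted p = 0.0748) and TCF7 (adjusted p = 0.0901). Among the 4 genes, TCF7L1 made up 59.7 ± 7.46% of the summed RPKM at laying, 35.6 ± 4.70% after normoxia and 61.2 ± 7.77% after hypoxia, and LEF1 5.71 ± 0.72%, 24.7 ± 3.95% and 5.15 ± 4.27%.

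Across roles, 6 genes were called higher in normoxia than in freshly laid embryos, lower in hypoxia than in normoxia, and not called between hypoxia and freshly laid embryos. They were the ligands WNT5A and WNT5B, the receptor FZD1, the inhibitors SFRP1 and DKK2, and LEF1. The mirror pattern, lower in normoxia and higher in hypoxia than in normoxia, was called for 5 genes, PORCN, LRP5, LRP6, TCF7L1 and TCF7L2. With total counts as the only scaling, only TCF7L1 of these kept its call in hypoxia against normoxia. A difference that was not called does not show that hypoxia and freshly laid embryos were alike. Genes called in hypoxia against both other groups in the same direction were WNT10A, AXIN1 and TCF7 among those higher, and FZD7, FZD10, RSPO2, SOST and NOTUM among those lower. WNT2B and LGR5 were higher, and WNT8B and RSPO3 lower, in both incubated groups than in freshly laid embryos. The shares of all tested genes with each of these patterns were not counted. The patterns therefore describe single genes and are not read as a result about the Wnt genes as a list.

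**Figure D5:**
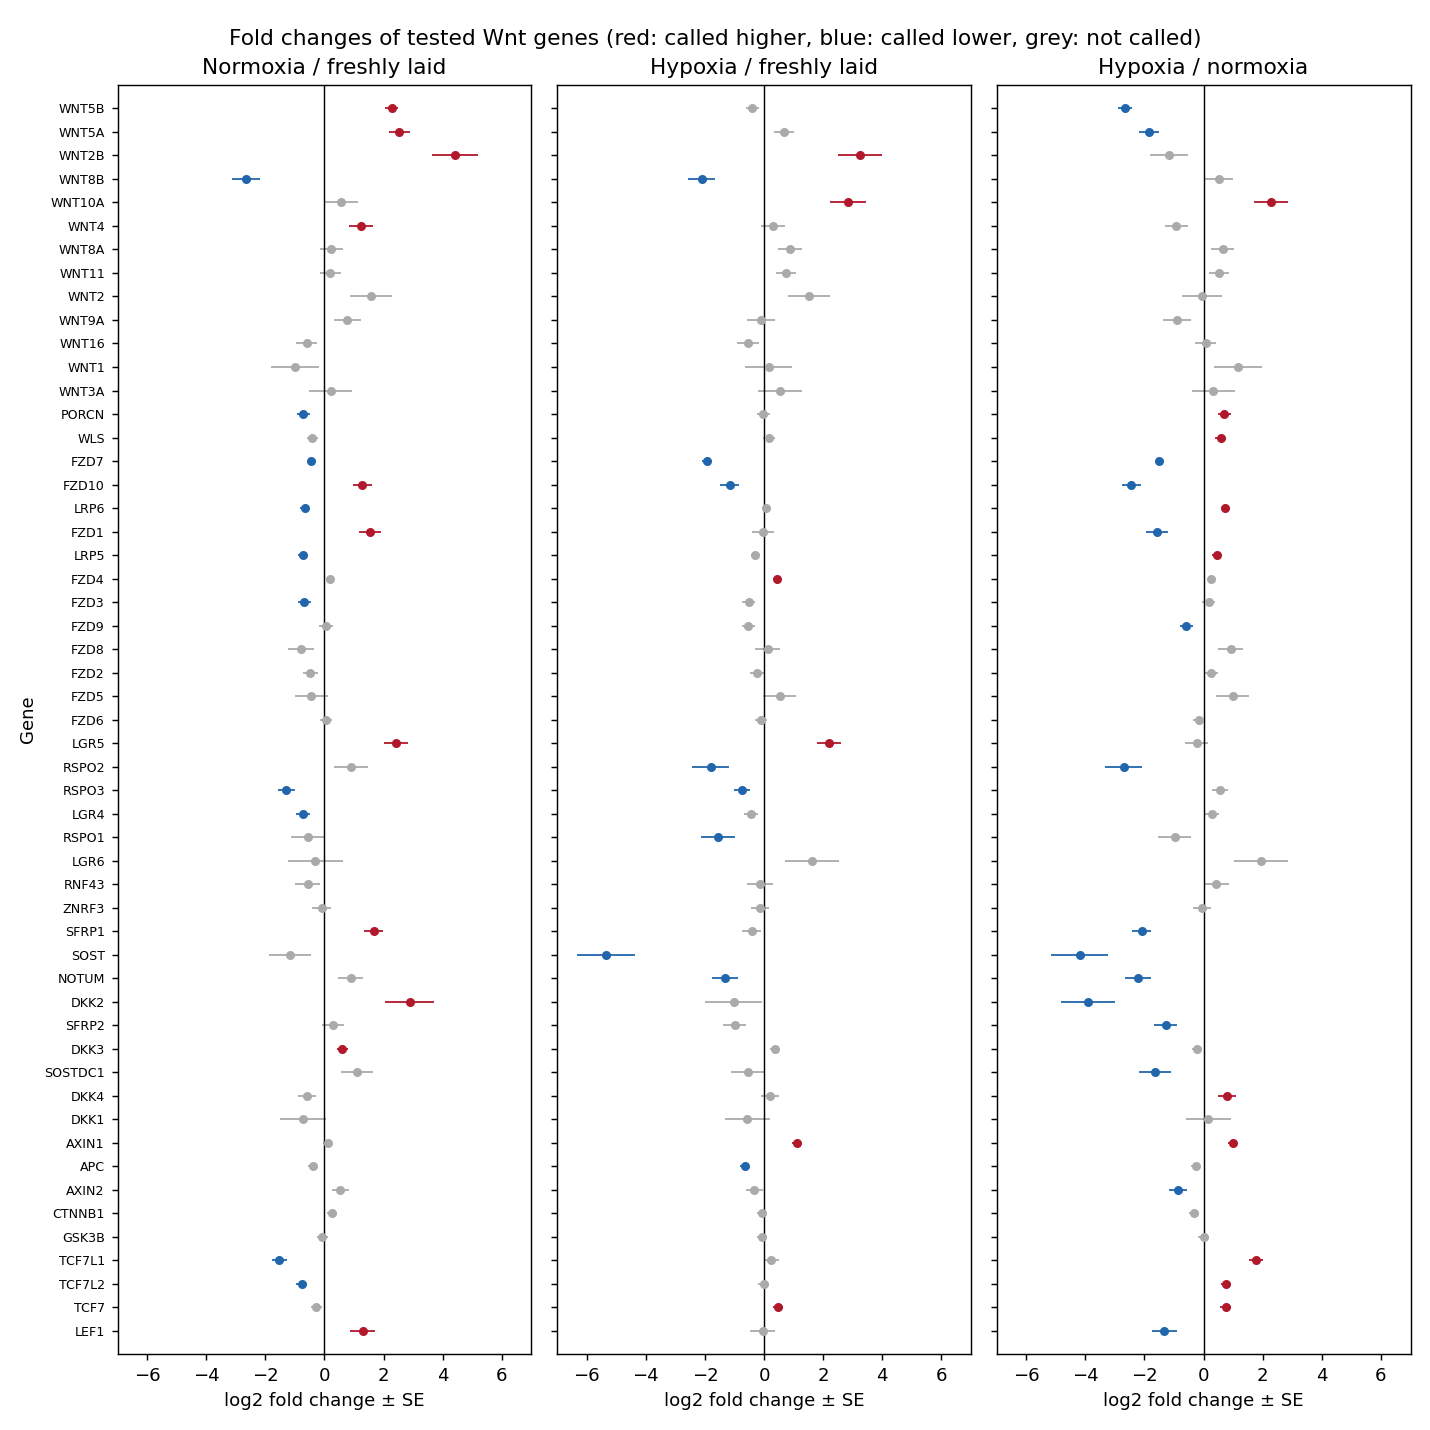
Log2 fold changes (points) with SE (bars) of the 53 tested Wnt genes in the 3 comparisons, in red where called higher, blue where called lower and grey where not called. WNT5B, WNT5A, FZD1, SFRP1, DKK2 and LEF1 are red in the left panel and blue in the right one, and SOST has the lowest value, -5.36, in the middle panel.

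Target genes of the pathway outside the symbol list moved in more than one direction. Of 15 tested genes of 17, 8 were higher and 2 lower from freshly laid to normoxia, 4 higher and 4 lower from freshly laid to hypoxia, and 4 higher and 9 lower in hypoxia against normoxia, with median log2 fold changes of 0.89, -0.22 and -1.66. These counts were 53.3% and 13.3%, 26.7% and 26.7%, and 26.7% and 60% of those tested. All tested genes gave 15.2% and 16.1%, 20.9% and 19.4%, and 25.7% and 23.2%. CCND1, which encodes the G1 cyclin D1, had 20.01 ± 4.99 CPM at laying, 44.7 ± 8.21 after normoxia and 14.01 ± 1.29 after hypoxia. Its level rose in air (1.16 ± 0.19, edgeR adjusted p = 2.96e-04) and was lower in hypoxia than in freshly laid embryos (-0.52 ± 0.19, adjusted p = 0.0380). MYC, the growth factor-responsive transcription factor, had 22.4 ± 8.105 CPM at laying, 42.4 ± 5.38 after normoxia and 11.5 ± 3.91 after hypoxia, with a rise in air of 0.92 ± 0.25 (edgeR adjusted p = 0.0107) and -0.97 ± 0.25 (adjusted p = 0.00575) in hypoxia against freshly laid embryos. Both were lower in hypoxia than in normoxia, CCND1 with -1.67 ± 0.19 (edgeR adjusted p = 2.35e-06) and MYC with -1.89 ± 0.26 (adjusted p = 1.44e-05).

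MSGN1, a presomitic mesoderm factor, had no count in any freshly laid library and was measured at 0, 0, 0, 0 and 0 CPM at laying, 22.8, 30.8, 28.4, 9.62 and 6.103 after normoxia and 0, 0, 0.0631, 0 and 0 after hypoxia. It was present in all normoxia libraries and in hypoxia only in replicate 3, so no fold is given. DACT1, which binds Dishevelled, went the other way, with 107 ± 13.1 CPM at laying, 75.4 ± 5.41 after normoxia and 190.2 ± 49.97 after hypoxia and 1.33 ± 0.17 (edgeR adjusted p = 6.11e-06) in hypoxia against normoxia. The other genes called lower in hypoxia than in normoxia were SP5, BAMBI, TBXT, TBX6, CDX2 and CDX4, and SP8, CDX1 and FGF8 were higher. Several of these genes mark posterior mesoderm and tail bud as well as answering to Wnt signals.

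Intracellular transducers were 23 tested genes of 28. In normoxia against freshly laid embryos 10 were called, all lower, 4 were higher and 4 lower in hypoxia than in freshly laid embryos, and 7 were higher and 5 lower in hypoxia against normoxia. The 10 lower in normoxia were 43.5% of those tested, beside 16.1% of all tested genes. The hypoxia calls, at 17.4% and 17.4%, then 30.4% and 21.7%, were near all genes, at 20.9% and 19.4%, then 25.7% and 23.2%. TNKS, the tankyrase that tags AXIN for breakdown, had 104 ± 12.7 CPM at laying, 70.9 ± 5.40 after normoxia and 180.1 ± 25.8 after hypoxia and 1.34 ± 0.13 (edgeR adjusted p = 3.45e-07) in hypoxia against normoxia. EP300, a co-activator that β-catenin recruits, had 73.1 ± 10.7 CPM at laying, 34.9 ± 7.28 after normoxia and 107 ± 16.6 after hypoxia and 1.61 ± 0.16 (edgeR adjusted p = 5.99e-07). GSK3A, the paralogue of GSK3B, was higher in hypoxia than in normoxia (1.11 ± 0.18, edgeR adjusted p = 7.40e-05), and CBY1, which binds β-catenin, was lower (-0.83 ± 0.17, adjusted p = 6.50e-04).

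Other extracellular modulators were 16 tested genes of 18, with 6 higher and 1 lower from freshly laid to normoxia, 2 higher and 3 lower from freshly laid to hypoxia, and 3 were higher and 5 lower in hypoxia against normoxia. These counts were 37.5% and 6.25%, 12.5% and 18.75%, and 18.75% and 31.25% of those tested. All tested genes gave 15.2% and 16.1%, 20.9% and 19.4%, and 25.7% and 23.2%. WIF1, another secreted inhibitor of Wnt proteins, had 8.75 ± 3.396 CPM at laying, 9.86 ± 2.67 after normoxia and 1.26 ± 0.352 after hypoxia, and was lower in hypoxia than in freshly laid embryos (-2.79 ± 0.32, edgeR adjusted p = 5.39e-06) and than in normoxia (-2.96 ± 0.32, adjusted p = 1.39e-06). Other secreted proteins of this list did not all go this way. CER1 lay higher in hypoxia (46.0 to 121 CPM) than in normoxia (18.1 to 28.5), and so did DRAXIN (8.58 to 17.3 against 3.19 to 8.15). FRZB lay lower (2.52 to 22.5 against 24.8 to 48.6). KREMEN1, a receptor for DKK proteins, was higher in hypoxia than in normoxia (1.25 ± 0.17, edgeR adjusted p = 1.77e-05). The heparan sulphate carrier GPC6 was higher in hypoxia than in freshly laid embryos (2.96 ± 0.46, edgeR adjusted p = 8.83e-05), and the sulphatase SULF2 was lower in hypoxia than in normoxia (-1.27 ± 0.17, adjusted p = 1.38e-05).

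In the planar polarity arm, 15 genes of 18 were tested, with 1 higher and 7 lower from freshly laid to normoxia, 2 higher and 5 lower from freshly laid to hypoxia, and 5 were higher and 3 lower in hypoxia against normoxia. These counts were 6.67% and 46.7%, 13.3% and 33.3%, and 33.3% and 20% of those tested. All tested genes gave 15.2% and 16.1%, 20.9% and 19.4%, and 25.7% and 23.2%. ROR2, the co-receptor of WNT5A, had 34.2 ± 9.19 CPM at laying, 72.1 ± 12.4 after normoxia and 53.6 ± 17.5 after hypoxia, and it was higher than in freshly laid embryos in normoxia (1.07 ± 0.22, edgeR adjusted p = 0.00184) and in hypoxia (0.65 ± 0.22, adjusted p = 0.0276). VANGL1, a core polarity protein, was lower in hypoxia than in freshly laid embryos (-1.37 ± 0.17, edgeR adjusted p = 8.65e-06) and than in normoxia (-0.93 ± 0.16, adjusted p = 1.72e-04). PRICKLE1 fell in air (-1.20 ± 0.21, edgeR adjusted p = 6.09e-04) and was higher in hypoxia than in normoxia (1.24 ± 0.22, adjusted p = 1.44e-04). DAAM1, a formin of this arm, was lower than in freshly laid embryos in both incubated groups (-0.95 ± 0.16, edgeR adjusted p = 4.22e-04 and -0.80 ± 0.16, adjusted p = 9.07e-04).

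Markers of other tissues differed between the groups too. The summed level of the 7 extraembryonic and surface ectoderm markers found, of 8, was 967 to 1905 CPM in freshly laid embryos, 791 to 1219 after normoxia and 2769.5 to 4985 after hypoxia. The 11 yolk and liver-like endoderm markers found, of 16, summed to 47.2 to 86.1, 83.5 to 1406 and 120 to 984 CPM, with FABP2 at 0 in freshly laid embryos. Blood and endothelium markers, 8 of 8 found, summed to 25.5 to 168, 129 to 285 and 29.6 to 174 CPM. Markers of epiblast, streak and neural plate, 9 of 9 found, were present in all groups as the label embryo implies, at 295 to 513, 129 to 218 and 215 to 371 CPM, with ZIC1 at 0 in freshly laid embryos. In hypoxia against normoxia, 4 ectoderm markers were called higher and 1 lower of 7 tested (57.1% and 14.3%). For yolk and liver-like endoderm the calls were 0 higher and 3 lower of 9 tested (0% and 33.3%). The calls were 1 higher and 2 lower of 7 for blood and endothelium (14.3% and 28.6%). For epiblast, streak and neural plate they were 3 higher and 2 lower of 9 (33.3% and 22.2%). All tested genes gave 25.7% and 23.2%, and the shares of the last 2 lists were near these. These sums hide genes that differ. KRT8 (200 to 320 CPM after normoxia, 1014 to 2074 after hypoxia) and KRT18 (237 to 446 and 1326 to 2664) made up most of the ectoderm sum. TP63 was lower after hypoxia (14.2 to 28.1 and 1.49 to 8.92), and GATA2 overlapped (193 to 300 and 157 to 216). In the last list EOMES was higher after hypoxia (7.62 to 45.4 and 97.5 to 185) and TBXT lower (46.8 to 72.1 and 1.86 to 15.3). The part of tissue makeup in the Wnt results was not tested.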

How the data were processed

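The authors deposited a table of raw counts. Per the file headers, featureCounts 1.6.2 made them at strand setting 2 and a minimum mapping quality of 10 on the annotation of assembly rCheMyd1.pri, with duplicates marked but counted. STAR and limma are named without versions in the submitters' processing notes. A further 3 columns, which no sample's labels match, stayed out. A mitochondrial entry without a name, 0.114 ± 0.0780%, 0.142 ± 0.0555% and 0.230 ± 0.106% of counts in freshly laid, normoxia and hypoxia, was left out of totals.

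In R 4.3.3, edgeR 4.0.16 (filterByExpr, TMM, quasi-likelihood F test, 12 residual degrees of freedom) was fitted to all 15 libraries and p adjusted by Benjamini and Hochberg over 16639 genes. The procedure was tested on simulated data with the same spread for every gene and independent libraries. That simulation does not bear on samples of shared origin or on differences in composition. DESeq2 1.42.0, limma-voom 3.58.1 and other settings were alternatives. Members, lists, roles and settings were chosen with earlier results of these data known. Named with every library were up to 5 genes a role with the smallest adjusted p, and up to 4 a further list. Replicates are numbered in accession order only. In the 30 replicate pairs, the median squared difference was 12.4 to 52.8 times that of sampling noise alone. The lowest values were those of normoxia replicates 4 and 5 (12.4) and 2 and 3 (12.7), whose sample titles carry neighbouring numbers. Normoxia replicates 3 and 4, and 3 and 5, each gave 13.9. The labels do not say whether any of these shared a female. Promoter motifs and sequences were not analysed here.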

Additional observations from a re-analysis of the deposited data

Results flagged for a closer look

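In 159 groups of 5 libraries (53 genes in 3 groups), the highest or lowest library was checked for a gap to its nearest neighbour of over 0.71 of the group's range, which chance alone gives in about 1 in 20 groups. It was found in 7 groups. In freshly laid embryos, CTNNB1 stood at 1592 CPM in replicate 3 (others 1088 to 1207), WNT11 at 10.3 CPM in replicate 3 (2.82 to 4.60), PORCN at 56.6 CPM in replicate 4 (32.5 to 37.9) and WLS at 681 CPM in replicate 1 (463 to 496). In normoxia, FZD5 was low at 14.04 CPM in replicate 2 (45.0 to 57.2) and LGR6 high at 0.771 CPM in replicate 1 (0.0443 to 0.238). In hypoxia, PORCN was low at 23.6 CPM in replicate 5 (40.5 to 43.1).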

How the results depend on the processing

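Of 61 calls of Wnt genes over the 3 comparisons, 30 held under each of the 26 alternatives run, 31 were lost under at least 1, and 0 reversed direction. From freshly laid to normoxia, higher calls went from 11 to 6 and lower calls from 10 to 4 with only the libraries whose header index number is below 12 (4 freshly laid, 2 normoxia and 4 hypoxia), and lower calls to 6 when normoxia libraries with neighbouring title numbers were summed; leaving out 1 library gave 9 to 13 higher and 6 (without normoxia replicate 5) to 11 lower. All genes called there went from 5193 to 1413 and 2987 in those settings. With the summed libraries, 45 of the 61 Wnt calls held and 16 were lost. Those lost from freshly laid to normoxia include WNT4 (edgeR adjusted p = 0.0823), PORCN (0.0747), FZD7 (0.211), FZD3 (0.142), LGR4 (0.144) and LEF1 (0.0741). From freshly laid to hypoxia, lower calls went from 9 to 15 with total counts only and to 5 with only the 2 groups compared in the fit, and leaving out 1 library gave 6 to 9. For hypoxia against normoxia, higher calls went from 10 to 3 with total counts only and to 6 with the summed libraries, and all genes called from 8123 to 4789 with index numbers below 12. With total counts only, the all-gene median (log2) shifted by 0.01, -0.31 and -0.32 in the order above, and its split of all genes in hypoxia was 2088 higher and 5259 lower against freshly laid embryos and 2674 and 5600 against normoxia, beside 3474 and 3227, and 4268 and 3855, with TMM. Entering as a covariate whether that index was below 12 left 55 of 61 calls; both index settings were chosen after seeing the data. The labels give no replicate numbers or clutches, but title numbers fall in 5 bands, each with freshly laid and hypoxia libraries. Normoxia libraries fall only in bands 1, 3 and 5. Deviations from the group means correlated at 0.0439 to 0.319 in the 15 pairs of 1 band, with 10 over 0.1. They correlated at -0.288 to 0.128 in the 60 other pairs, with 2 over 0.1, a hint from the data only. With the bands as a replicate block, chosen after seeing the data, 54 of 61 calls held and 4 were gained, and lower calls from freshly laid to normoxia went from 10 to 6. Genes under about 1 CPM, such as SOST in hypoxia or DKK2 outside normoxia, rest on few counts.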

Other observations

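The following genes were picked after their values were seen. Among 11 anterior, node and early mesoderm genes, freshly laid replicate 1, where DKK1, FZD5 and FZD8 were low, was the lowest freshly laid library for 8. It was not for NODAL (3.58 CPM, beside 3.51 in replicate 2), for HESX1 (6.22 CPM against 4.95 to 7.67) or for TBXT. GSC was at 0.0628 CPM there and at 16.04 to 39.04 CPM in the other freshly laid libraries, OTX2 at 0.0628 against 1.65 to 7.42, CER1 at 1.88 against 12.2 to 132 and FOXA2 at 1.44 against 5.35 to 20.3. The posterior factor TBXT was highest in that library, at 84.5 CPM against 14.95 to 39.96. Replicate 3 was the highest freshly laid library for DKK1 (87.6 CPM), FZD5 (139), GSC (39.04), OTX2 (7.42) and CER1 (132).

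Hypoxia replicates 3 and 4 were the highest of their group for WNT5A (23.0 and 11.1 CPM), LEF1 (23.7 and 14.1), NOTUM (9.72 and 7.75), DKK1 (47.0 and 45.8), SP5 (10.9 and 7.13), TBXT (12.4 and 15.3) and NODAL (5.49 and 2.604). NODAL was at 0 to 0.109 CPM in the other hypoxia libraries, at 3.51 to 17.4 in freshly laid embryos and at 0.0346 to 0.238 in normoxia.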
